A study of Homo sapiens with 24 samples.

Results

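The genes of the actin, myosin and tubulin cytoskeleton were described in MRC5 cells, a human lung fibroblast line, before and after oxidative stress (OS). Members were the catalog probes of a custom Agilent one-colour array whose gene name begins with the letters of an actin, actin-related protein, cofilin, profilin, capping protein, actinin, filamin, talin, tropomyosin, calponin, transgelin, myosin or tubulin family. This rule took 88 of 15102 gene names, measured by 111 of 17535 catalog probes. A TUBB2A probe carried an outlier mark and was left out, so that 110 probes were used, in 10 roles assigned by name. Of these, 9 probes were set apart because the rule took them by their letters alone or because they name a pseudogene, an antisense RNA or a likely pseudogene: CFLAR, which encodes an apoptosis regulator, CFLAR-AS1, MYH16, TUBBP5, CFL1P1, ACTR3BP2, ACTR3BP5 and the PFN1P2 pair.

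In the actin system, monomers are handed over by profilin, filaments are branched by the Arp2/3 complex, severed by cofilin, capped at their ends, wrapped by tropomyosin and bundled or anchored by filamin, actinin and talin. Myosin II pulls on these filaments once its light chains are phosphorylated, and unconventional myosins carry cargo or link membranes to them. Tubulin alpha and beta dimers build microtubules, which the gamma-tubulin complex nucleates. The mRNAs of alpha and beta tubulin are also known to be degraded on the ribosome when free dimers are in excess. Fibroblasts depend on these families for shape, traction and migration.

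The study asked how OS changes the association of RNAs with ribosomes. Control cells were untreated, and OS cells received 0.2 mM H2O2 for 2 h. Both were given cycloheximide before lysis. Lysates were run on sucrose gradients, and fractions 1 to 9 (free RNA and single ribosomes), 10 to 14 (2 to 4 ribosomes) and 15 to 23 (5 or more ribosomes) were combined into an untranslated, a low and a high pool. With unfractionated total RNA this gave 8 groups of 3 arrays, 24 in all, each group from 3 independent RNA preparations of a single cell line. Nothing in the labels says whether these came from separate cultures, so the p-values measure only the spread between preparations. The same mass of RNA was labelled for each array through oligo-dT priming, and each array was brought to the same distribution, so every value below is a relative level within its pool and not an amount. Fewer cells of a type and less RNA per cell cannot be told apart in such samples.

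One array stood apart. In OS low replicate 3, 95.4% of catalog probes and 93.3% of lncRNA probes were well above background, against 43.6 to 67.8% and 14.5 to 36.3% on the other arrays. It was left out of the normalisation and the fit, so the OS low pool had n = 2, and values with it are given where they matter. Control total replicate 1 differed from replicates 2 and 3 by a standard deviation (SD) of 0.966 and 1.06 on the log2 scale, against 0.473 between replicates 2 and 3, and was kept. The fibroblast markers COL1A1, COL3A1, LUM and THY1 were above background on 23 of 23 arrays. MYOD1 of muscle and VWF of endothelium were above background on 0 of 23, while the epithelial keratins KRT8 and KRT18 and the muscle filament DES were so on 23, the endothelial CDH5 on 19, the cardiac TNNT2 on 11, the epithelial EPCAM on 7 and the blood marker PTPRC on 22 at 1 of its 3 probes and on 0 at the other two. In total RNA, 3 of the 4 probes of the stress gene ATF3 were higher upon OS by 4.75 to 4.88 on the log2 scale.

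In these cells 61 member probes of 49 genes were well above background on every one of 23 arrays, 19 probes of 18 genes on none, and 30 on some. The undetected probes included muscle genes, among them cardiac actin ACTC1, the sarcomeric actinin ACTN2 and the heavy chains MYH4, MYH8, MYH13 and MYH15, and unconventional myosins such as MYO1D, MYO3B, MYO5B and MYO5C. Detection on every array of a group ranged from 58.2% of members in the OS untranslated pool to 72.7% in the OS low pool, where 2 arrays were used. To be tested, a probe had to be above background throughout at least 1 of the groups set against each other, so the counts below cover only those members. No member probe was saturated. A panel of 51 well-known members had been listed, and 27 of them had a probe, among them TUBB, TUBA1A, CFL1, PFN1, MYL12A, FLNA and TPM1. The other 24, ACTB, ACTG1, ACTA2, MYH9, MYL9, VIM and VCL included, were not analysed here.

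Several contractile genes are known targets of serum response factor, which senses the pool of free actin through its cofactors and binds the CArG box. The box was searched in RefSeq promoters of 300 bases, from 250 before to 50 after the start, on both strands (the motif is its own reverse complement). It was found in 6 of 69 member promoters (8.7%) and in 1.29% of 35116 promoters of all genes. The member share takes 1 promoter per gene, with 80 gene names searched, and the other share takes every promoter listed. The shares may thus not be in like units. These windows of 30 bases on GRCh38.p14 are all those found in member promoters, and all of their genes but the undetected ACTC1 recur in the results; the capitals mark the box, and a match is a description of letters, not a bound site.
ACTC1 (chr15:34795639-34795668, minus strand, first capital 109 bases before the start): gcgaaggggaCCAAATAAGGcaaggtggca
ACTG2 (chr2:73892888-73892917, plus strand, 110 bases before): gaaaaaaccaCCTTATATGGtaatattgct
ACTG2 (chr2:73892925-73892954, plus strand, 73 bases before): cgtcagctggCCTTTTTAGGgactttgttt
CNN2 (chr19:1026509-1026538, plus strand, 89 bases before): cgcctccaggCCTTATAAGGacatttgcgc
FLNA (chrX:154374709-154374738, minus strand, 94 bases before): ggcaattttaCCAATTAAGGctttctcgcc
MYO1E (chr15:59372883-59372912, minus strand, 31 bases before): gctgagttctCCATTTATGGacagattgcc
TPM4 (chr19:16067355-16067384, plus strand, 173 bases before): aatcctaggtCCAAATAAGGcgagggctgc

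The first comparison set the high pool against the untranslated pool in control cells, to show where on the gradient each message lay without stress. Most members lay towards the polysomes. Of 75 member probes tested, 51 were higher in the high pool and 17 lower, where 47.2% of all 9880 catalog probes tested were higher and 34.5% lower (limma, adjusted p below 0.05). The median member difference was 1.29 on the log2 scale, against 0.35 over all catalog probes tested. The distribution forced on each array sets the zero of this scale. Scaling by the 75th percentile in its place moved the catalog median to 1.64, so a value is best read against the catalog median.

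Alpha and beta tubulins, the subunits of microtubules, were the role with the strongest polysome position, with 10 of 11 probes higher and a median difference of 2.56. TUBB4B measured 11.25, 11.29 and 11.64 in the 3 control untranslated arrays and 15.18, 14.96 and 14.99 in the high pool (normalised log2 intensity). The groups lay far apart, and the difference was 3.65 ± 0.18 (standard error, SE), or 12.6-fold (adjusted p = 6.88e-12). TUBA1A differed by 3.44 ± 0.18 (adjusted p = 1.42e-11), the TUBB probe A_23_P81912 by 3.42 ± 0.14 (adjusted p = 6.35e-13) and TUBB6 by 2.57 (adjusted p = 1.56e-13). TUBA3D, an alpha tubulin best known from testis, was the exception within its role. It measured 10.16, 10.33 and 10.72 in the untranslated pool and 7.65, 7.74 and 7.88 in the high pool, a fall of 2.64 ± 0.15 (adjusted p = 2.53e-11). The TUBA3D probe matched both TUBA3D and TUBA3E in the RefSeq table. Which of these it measured, here and upon OS, was not tested. All 10 tropomyosin, calponin and transgelin probes tested were higher in the high pool, by 1.26 to 2.33, TPM1 by 2.32, the TPM2 pair by 1.82 and 2.33 and the smooth muscle protein CNN1 by 2.18. Of 10 unconventional myosin probes 8 were higher, MYO10 by 2.13.

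In the monomer and filament-end role 4 of 5 probes were higher in the high pool and 0 lower. Of catalog probes 47.2% were higher and 34.5% lower. The role median of 0.46 lay close to the catalog median of 0.35. Its probes nevertheless had their highest means mostly in the low pool. The capping protein CAPZA1 was an exception, with its mean highest in the high pool. The mean over the 3 arrays was highest in the low pool for 4 of 5 probes of monomer and filament-end proteins, the CFL1 pair, PFN1 and CAPZA2, and for TAGLN. Cofilin, CFL1, measured 14.36, 14.69 and 14.47 in the untranslated, 15.88, 15.89 and 15.82 in the low and 14.65, 14.97 and 15.27 in the high pool. Its low pool values were thus above all the others, and its difference from untranslated to high pool was only 0.46 (adjusted p = 0.0139). Profilin, PFN1, differed by −0.05 (adjusted p = 0.79). Of 9 myosin II probes tested 3 were higher in the high pool and 5 lower, and their median was −0.81. The lowest was the light chain MYL6B at −4.17 ± 1.71 (adjusted p = 0.0347), whose large error came from 1 array described below. MYH14, a non-muscle heavy chain, fell by 2.27 and 1.45 at its pair of probes. The Arp2/3 and actin-related role was split, with 6 of 13 probes higher and 6 lower, against 47.2% and 34.5% of catalog probes. ACTR2 and ARPC1A had their highest means in the high pool. The 3 probes of ACTR3B, an Arp3 paralog, fell by 1.65, 1.44 and 1.14, 2 of these signs turning under 75th percentile scaling. Over all members, the highest pool mean was in the high pool for 42 of 76 probes (55.3%), against 43.1% of all catalog probes. The choice of pool by highest mean was not tested.

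**Figure D1:**
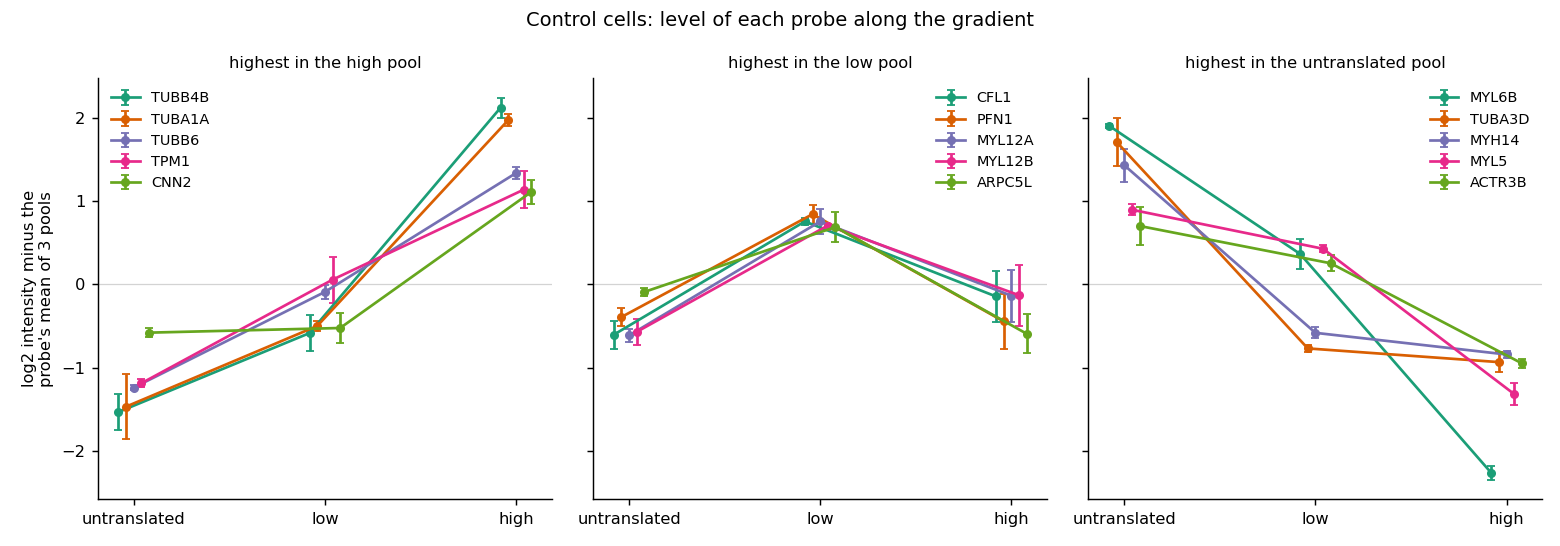
Position of 15 member probes across the 3 control pools. Each panel plots normalised log2 intensity minus the probe's mean of the 3 pools (y axis) for the untranslated, low and high pools (x axis); points are means and bars SD of 3 arrays. TUBB4B, TUBA1A, TUBB6, TPM1 and CNN2 rise to the high pool, CFL1, PFN1, MYL12A, MYL12B and ARPC5L are highest in the low pool, and MYL6B, TUBA3D, MYH14, MYL5 and ACTR3B fall from the untranslated pool.

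Upon OS the same difference was measured again. Of 74 member probes tested 47 were higher in the high pool and 13 lower, with 46.9% of catalog probes higher and 31.9% lower, and the member median was 0.95 against 0.37. TUBA1A, at 3.14 (adjusted p = 7.7e-11), and TUBB4B, at 2.87 (adjusted p = 2.55e-10), were again among the highest, beside CFLAR at 3.59 ± 0.32 (adjusted p = 1.88e-08). MYO3A at −3.08, TUBA3D at −3.01 and MYH14 at −2.45 were the lowest of those called, whereas MYL6B at −3.62 was not called. MYO10 was not called upon OS. The control and OS differences use separate arrays, and whether a probe moved between them was tested as a shift further on.

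**Figure D2:**
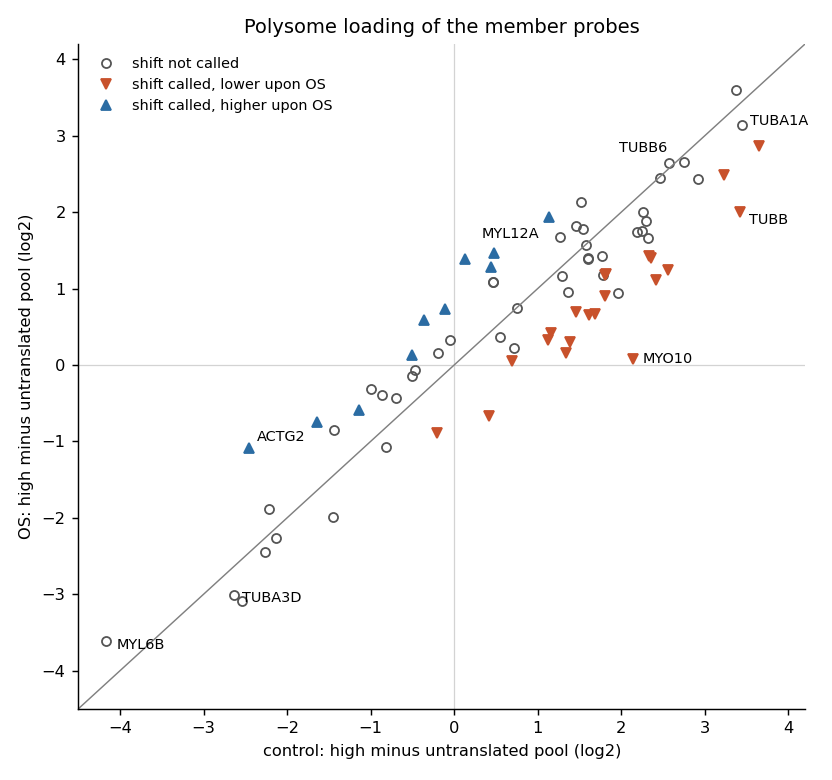
Polysome position of 75 member probes in control cells (x axis) and upon OS (y axis), each as the log2 difference between high and untranslated pool. Triangles pointing down and up are probes whose shift was called lower or higher, open circles the others, and the grey line marks equal values; MYO10 and the TUBB probes lie below the line, MYL12A, MYL12B and ACTG2 (A_33_P3418541) above it.

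In total RNA few members changed within the 2 h of OS. Of 80 member probes tested, 4 rose and 6 fell, where 5.49% of 10630 catalog probes tested rose and 7.56% fell. The member share was 5% higher and 7.5% lower, close to this background, and the member median of −0.03 lay beside a catalog median of −0.02. MYO1E, a membrane-linked class I myosin with a CArG box in its promoter, measured 12.60, 12.59 and 12.62 in control and 11.91, 12.13 and 11.87 upon OS. The groups did not overlap, and it fell by 0.63 ± 0.14 (adjusted p = 0.00327). MYO10, a filopodial motor, measured 11.61, 11.40 and 11.32 in control and 10.94, 10.91 and 10.72 upon OS. It fell by 0.59 ± 0.13 (adjusted p = 0.00511), again without overlap. No alpha or beta tubulin was called among 11 probes, whose differences lay between −0.27 and 0.40. Without control total replicate 1 TUBB6 was called lower, by −0.34 (adjusted p = 0.0352). In addition none of 11 tropomyosin, calponin and transgelin probes was called.

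The other total RNA calls were mostly of dim probes. MYH7B, a slow-type heavy chain, was above background on 0 of 3 control and on 3 of 3 OS arrays, at 4.05, 3.49 and 3.87 and then 5.33, 5.97 and 5.93, so it was at least 1.71-fold higher (adjusted p = 3.69e-05). CFL1P1, a cofilin pseudogene, was at least 1.18-fold higher (adjusted p = 0.0259), and ACTR3C was at least 1.75-fold lower (adjusted p = 0.00996). Such bounds set the mean of the brighter group against the lowest signal found above background. MYH7B, CFL1P1 and ACTR3C were tested only through their brighter group, so passing the filter and the direction of the difference are tied. With the filter on all groups compared, 1 of 74 member probes rose and 5 fell. Of catalog probes 3.54% then rose and 6.78% fell. The only probe named for talin, TLN1, fell by 0.98 ± 0.27 (adjusted p = 0.0174), a call lost without control total replicate 1 or OS total replicate 3. Its accessions did not match the RefSeq table, so which transcript it measures was not tested. TUBE1, epsilon tubulin of the centriole, rose by 0.56 ± 0.18 (adjusted p = 0.0396) and ARPC4-TTLL3, a readthrough of 2 genes, by 0.56 ± 0.14 (adjusted p = 0.011). The ARPC4-TTLL3 probe matched both the readthrough and TTLL3 itself in the RefSeq table. Which of these it measured, here and in the pools below, was not tested. Over the alternative settings the call was lost in 11 of 17 for TUBE1, leaving out any OS total array or control total replicate 1 or 2 among them, in 7 of 16 for CFL1P1, in 3 of 17 for TLN1 and in 2 of 17 for ARPC4-TTLL3.

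Some genes gave different answers at different probes. Filamin A, FLNA, was measured by the bright probe A_33_P3366120 (GRCh37 chrX:153577264-153577323, minus strand), which differed by −0.41 (adjusted p = 0.13) in total RNA. Its dim probe A_33_P3226755 (chrX:153601752-153601811) measured 6.93, 6.84 and 6.93 in control and 5.90, 5.62 and 5.00 upon OS and fell by 1.39 ± 0.29 (adjusted p = 0.00253). The enteric smooth muscle actin ACTG2 differed by −0.21 (adjusted p = 0.267) at the bright probe A_23_P39955 and fell by 1.03 ± 0.27 (adjusted p = 0.0119) at the dim probe A_33_P3418541. Bright ACTG2 values in the high pool were 18.04, 18.07 and 18.09 in both conditions, since the normalisation sets the brightest probes by rank. The accessions of the dim FLNA and ACTG2 probes did not match the RefSeq table, so which transcript they measure was not tested. Of the 7 probes tested of genes with a CArG box, 0 rose and 3 fell (the dim FLNA and ACTG2 probes and MYO1E), with 5.49% of catalog probes higher and 7.56% lower. In the untranslated pool 3 of 6 rose and 1 fell, with 21.3% of catalog probes higher and 24% lower.

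MYL6B, an essential light chain, showed what a single array can do. It measured 3.41, 13.84 and 13.86 in control total RNA and 14.13, 14.06 and 14.24 upon OS. Replicate 1 alone lay far below all the other arrays, and the fitted difference of 3.78 ± 1.71 was not called (adjusted p = 0.164). Without control total replicate 1, the difference in total RNA was 0.30 (adjusted p = 0.175), that between high and untranslated pool in control −4.18 ± 0.12 (adjusted p = 1.11e-13), and the shift 0.55 ± 0.16 (adjusted p = 0.0258).

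Most member calls upon OS were in the untranslated pool. Of 66 member probes tested there, 26 rose and 9 fell, where 21.3% of 8025 catalog probes rose and 24% fell, and the member median was 0.22 against −0.04. Unconventional myosins rose in 7 of 9 probes, alpha and beta tubulins in 6 of 11, tropomyosins, calponins and transgelins in 5 of 9, and crosslinkers in 2 of 2. The Arp2/3 and actin-related role ran the other way, with 5 of 13 probes lower, 2 higher and a median of −0.43. No probe of the monomer and filament-end role was called among 4. Arrays of the untranslated pools differed among replicates by SDs of 0.651 to 0.867 over catalog probes.

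MYO10 gave the lowest adjusted p of any member there. Its probe (GRCh37 chr5:16662019-16662078, minus strand) measured 9.09, 9.22 and 8.94 in the control untranslated pool and 11.14, 10.99 and 10.99 upon OS. All OS arrays lay far above all control arrays, and it rose by 1.96 ± 0.13, or 3.89-fold (adjusted p = 1.76e-08). In the low pool it measured 9.22, 9.35 and 9.35 in control and 10.32 and 10.20 upon OS, a rise of 0.96 ± 0.15 (adjusted p = 0.000395). In the high pool it measured 11.40, 11.25 and 11.01 in control and 11.37, 10.86 and 11.12 upon OS. These groups overlapped, with a difference of −0.10 (adjusted p = 0.771). MYO10 was thus lower in total RNA, higher in the untranslated and low pools, and not called in the high pool. Other motors also rose in the untranslated pool. MYO6, which walks towards the minus end of actin, rose by 1.15 ± 0.14 (adjusted p = 9.19e-06). The MYO18A pair, of a Golgi-linked myosin, rose by 1.10 and 1.46. MYO1E, MYO18A, ARPC1A, ARPC5L, CAPZA2 and MYL5 are named after their values were seen.

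Filamin A, which crosslinks actin filaments and ties them to membrane receptors, rose in all 3 pools. FLNA measured 12.69, 12.80 and 13.05 in the control untranslated pool and 14.55, 14.67 and 14.69 upon OS, and rose by 1.79 ± 0.17 (adjusted p = 7.62e-07). It measured 12.72, 12.84 and 12.80 in the control low pool and 14.19 and 13.95 upon OS, a rise of 1.29 ± 0.19 (adjusted p = 0.000284). It measured 14.39, 14.46 and 14.06 in the control high pool and 15.55, 14.80 and 15.65 upon OS. No OS array overlapped a control array in any pool, and the rise in the high pool was 1.03 ± 0.17 (adjusted p = 0.000529).

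Beta tubulins rose in the untranslated pool. The 6 of 11 alpha and beta tubulin probes called there were all of beta tubulins. TUBB held 3 of these, and 21.3% of catalog probes rose in that pool. In the high pool 0 of 11 were called, where only 6.58% of catalog probes rose and 5.94% fell. TUBB, the main beta tubulin of dividing cells, measured 13.27, 13.24 and 13.42 in the control untranslated pool at A_23_P81912 (chr6:30691905-30691964, plus strand) and 14.18, 14.37 and 14.62 upon OS. The groups were apart, and it rose by 1.08 ± 0.14 (adjusted p = 1.55e-05); the other TUBB probes rose by 0.81 and 0.85. In the high pool this probe measured 16.89, 16.73 and 16.58 in control and 16.47, 16.27 and 16.41 upon OS. All OS values lay below the control values, but the difference of −0.35 was not called (adjusted p = 0.119). TUBB4B rose by 0.88 ± 0.18 (adjusted p = 0.00111), TUBB2A by 0.54 ± 0.15 (adjusted p = 0.00968) and TUBB2B by 0.99 ± 0.23 (adjusted p = 0.00256). TUBA1A at 0.22 (adjusted p = 0.381) and TUBB6 at −0.09 (adjusted p = 0.515) were not called, their OS and control values overlapping. Gamma tubulin TUBG1, of the nucleating complex, rose by 0.68 ± 0.14 (adjusted p = 0.00142), while the dim delta tubulin TUBD1 fell by 1.39 ± 0.28 (adjusted p = 0.00104).

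**Figure D3:**
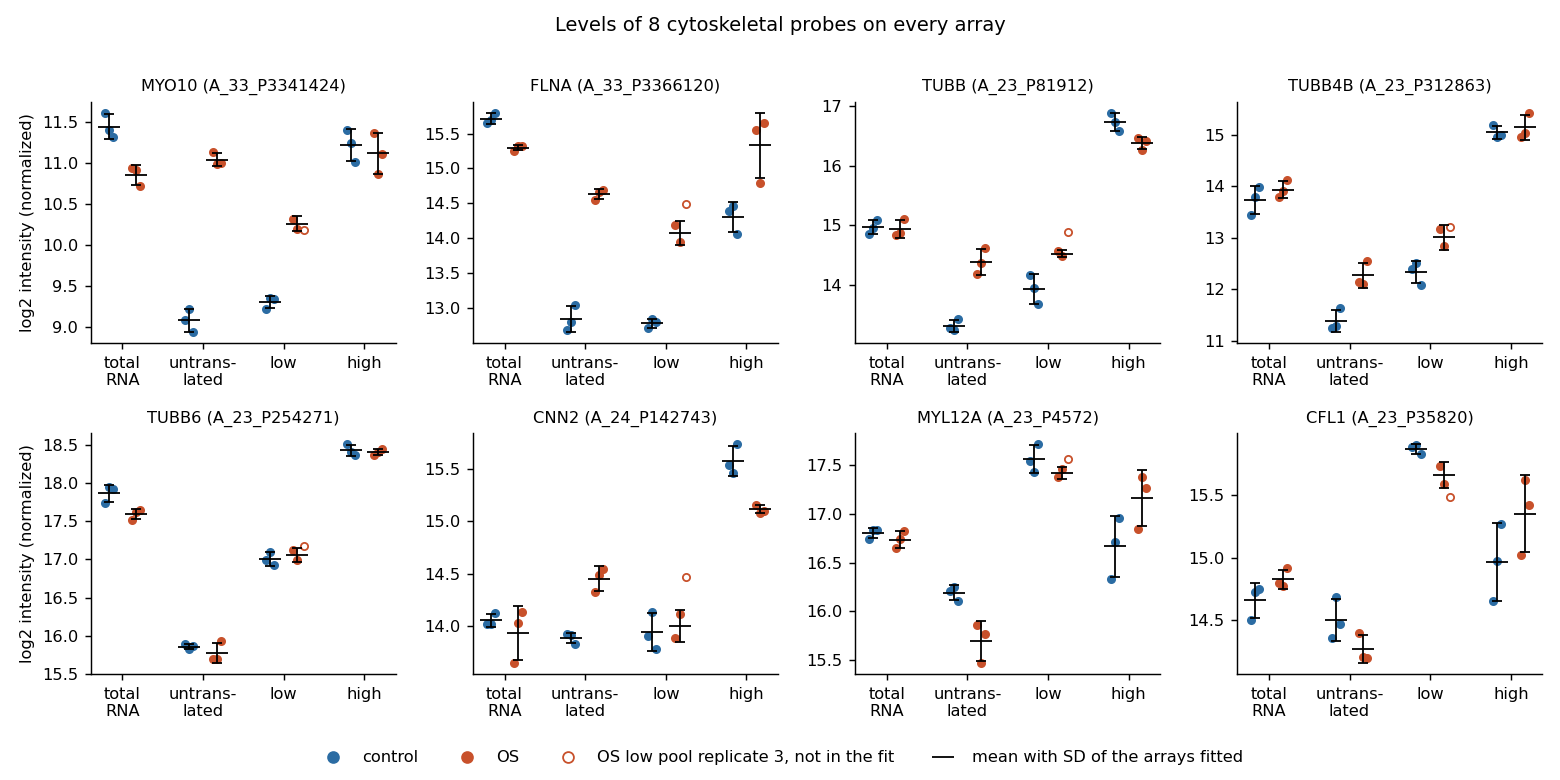
Normalised log2 intensity (y axis) of 8 member probes on every array, by group (x axis), control and OS side by side; the open circle is OS low replicate 3, placed by rank and not in the fit. MYO10 and FLNA stand higher upon OS in the untranslated and low pools, TUBB, TUBB4B and CNN2 rise in the untranslated pool, and TUBB6 and CFL1 show overlapping groups there.

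Filament-binding proteins rose there too. TPM2, beta tropomyosin, measured 16.08, 16.12 and 16.14 in the control untranslated pool and 16.86, 16.71 and 17.12 upon OS at its A_33 probe, with no overlap. Its pair of probes rose by 0.78 (adjusted p = 6.76e-05) and 0.82 (adjusted p = 6.35e-06). CNN2, calponin 2 (chr19:1038261-1038320, plus strand), measured 13.92, 13.91 and 13.83 in control and 14.32, 14.49 and 14.55 upon OS. It rose by 0.57 ± 0.13 (adjusted p = 0.00227), and CNN1 by 0.43 ± 0.14 (adjusted p = 0.0211), a call lost in 7 of 19 alternative settings. In the high pool CNN2 went from 15.54, 15.46 and 15.73 to 15.16, 15.08 and 15.10. It fell there by 0.46 ± 0.13 (adjusted p = 0.0218), a call lost in 9 of 18 settings, leaving out OS high replicate 2 or 3 or control high replicate 3 among them.

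The members that fell in the untranslated pool came mostly from branching and contraction. ACTR3B fell at all 3 probes, from 10.90, 10.56 and 10.46 to 9.76, 9.98 and 9.65 at A_23_P123193, by 0.84 ± 0.15 (adjusted p = 0.000276). ARPC5L, an Arp2/3 subunit, fell by 0.48 ± 0.12 (adjusted p = 0.0061), whereas ARPC1A, another subunit, rose by 0.43 (adjusted p = 0.028), a call lost in 9 of 19 settings. MYL12A, a regulatory light chain of non-muscle myosin II, measured 16.21, 16.25 and 16.11 in control and 15.86, 15.47 and 15.77 upon OS. It fell by 0.49 ± 0.16 (adjusted p = 0.0222), a call lost in 7 of 19 settings. In the high pool it measured 16.34, 16.71 and 16.96 in control and 16.84, 17.38 and 17.26 upon OS. It rose there by 0.49 ± 0.16 (adjusted p = 0.0474), but the groups overlapped and the call was lost in 13 of 18 settings, with all 24 arrays, with values as deposited and without control total replicate 1 among them.

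In the low pool 13 of 80 member probes rose and 0 fell, against 5.83% of 10833 catalog probes higher and 4.7% lower, at a member median of 0.04 and a catalog median of −0.03. Besides MYO10 and FLNA these were mainly tubulins and motors, TUBB by 0.59 ± 0.16 (adjusted p = 0.0212), TUBB4B by 0.67 ± 0.20 (adjusted p = 0.0468), MYO6 by 0.82 (adjusted p = 0.0022) and MYO18A by 0.55 and 0.71. The TUBB4B call was lost in 11 of 17 settings and that of TUBB in 6. This group rested on 2 OS arrays. With all 24 arrays 12 members were called, 11 higher and TUBD1 lower, with FLNA at 1.42 and MYO10 at 0.91 still among them and MYO6, TUBE1 and CFL1P1 no longer so. Of catalog probes 4.29% were then higher and 5.09% lower. Without OS low replicate 2 the count was 5, without OS low replicate 1 or control low replicate 3 it was 8, and under 75th percentile scaling it was 3.

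In the high pool 6 of 75 member probes rose and 2 fell, close to the 6.58% of 10266 catalog probes that rose and the 5.94% that fell. Among those that rose were FLNA, TUBE1, ARPC4-TTLL3, MYL12A and a MYO18A probe, and those that fell were CNN2 and TUBGCP2. TUBE1 measured 8.66, 8.76 and 9.03 in control and 9.65, 9.93 and 9.78 upon OS. All OS arrays were above the control arrays, and it rose by 0.97 ± 0.18 (adjusted p = 0.00112). TUBGCP2, a core subunit of the gamma-tubulin complex, measured 13.14, 12.89 and 12.81 in control and 12.48, 12.56 and 12.47 upon OS, and fell by 0.44 ± 0.11 (adjusted p = 0.0133). The count was 4 without OS high replicate 3 and 13 without OS high replicate 1. FLNA, ARPC4-TTLL3 and a MYO18A probe rose in all 3 pools. The MYO18A call in the high pool was lost in 13 of 18 settings, that of FLNA in 1 and that of ARPC4-TTLL3 in 0.

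**Figure D4:**
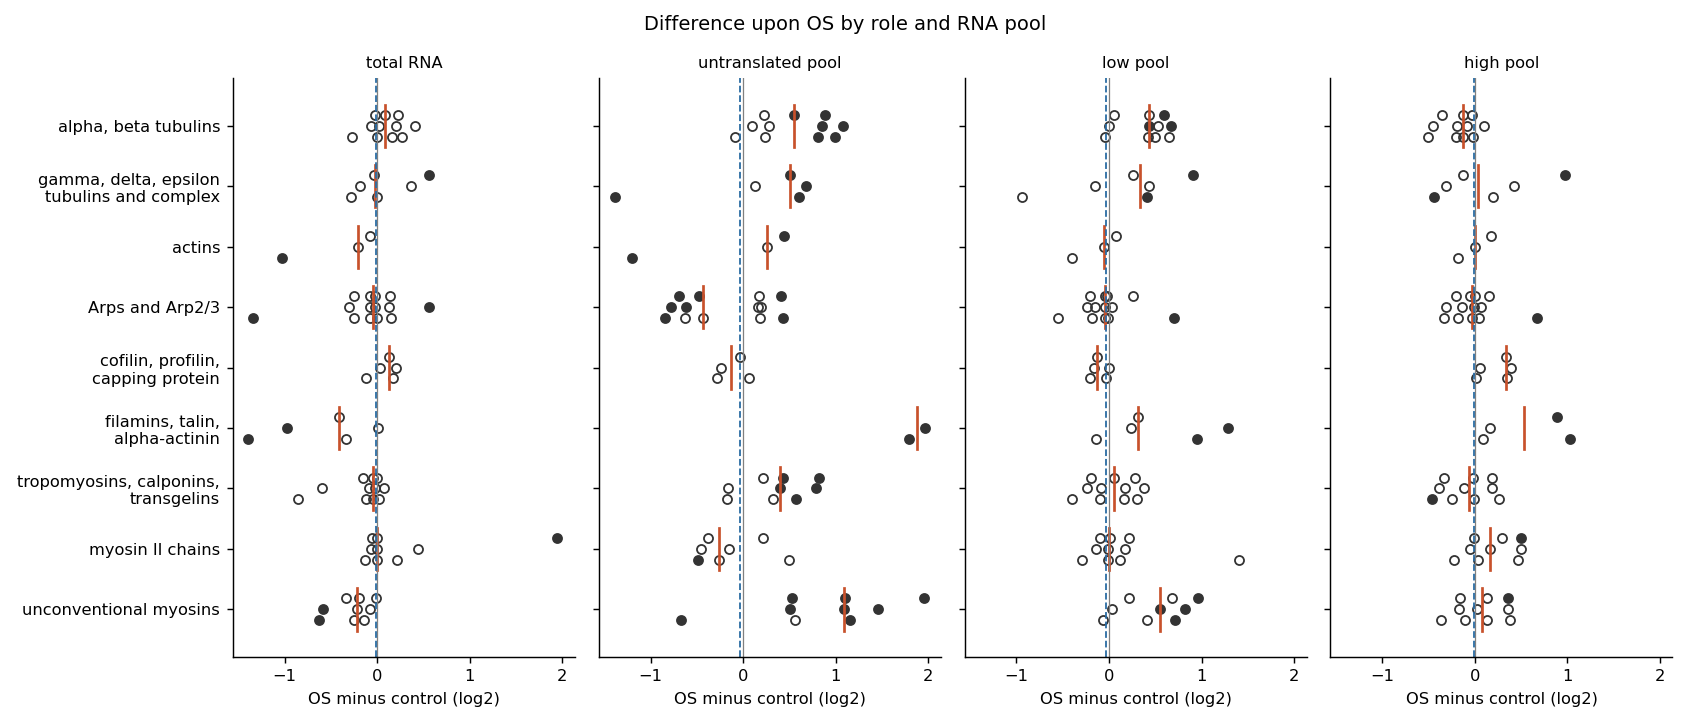
Log2 difference between OS and control (x axis) of each member probe tested, by role (y axis), in total RNA and the 3 pools. Filled points were called, orange bars are role medians and the dashed line is the median of all catalog probes tested; MYL6B at 3.78 is left out of the total RNA panel. The medians of tubulins, crosslinkers and unconventional myosins stand to the right of the line in the untranslated pool, and those of tubulins and motors near it in the high pool.

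The last comparison tested whether the difference between high and untranslated pool itself changed upon OS, here called the shift. Of 75 member probes tested 10 had a higher and 21 a lower shift, where 16.1% of 10369 catalog probes were higher and 14% lower, and the member median was −0.22 against 0.02. Unconventional myosins were lower in 7 of 10 probes with a median of −0.85, and alpha and beta tubulins in 6 of 11 with a median of −0.75. Tropomyosins, calponins and transgelins were lower in 3 of 10 and crosslinkers in 2 of 4. Myosin II was higher in 3 of 9 and lower in 0, and the Arp2/3 role higher in 3 of 13 and lower in 1. The shift is computed from the same untranslated and high arrays as above, so it is no separate evidence of those changes. All 21 probes with a lower shift were called higher in the untranslated pool, and 19 of them were not called in total RNA.

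MYO10 had the lowest shift, at −2.06 ± 0.19 or 4.17-fold (adjusted p = 1.96e-06). Within the 3 slides, each of which held 1 array of every group, it was −1.95, −2.43 and −1.80, that of TUBB was −1.37, −1.41 and −1.51, and that of MYL12A 0.90, 1.31 and 0.75. The TUBB probes followed at −1.43 ± 0.20 (adjusted p = 0.000101), −1.32 ± 0.23 (adjusted p = 0.00083) and −1.30 ± 0.23 (adjusted p = 0.000709), and TUBB2B at −1.18 ± 0.32 (adjusted p = 0.0143). Not every tubulin was called. TUBB6 measured 15.89, 15.82 and 15.86 in the control untranslated pool and 15.70, 15.69 and 15.93 upon OS, then 18.51, 18.41 and 18.37 and 18.37, 18.41 and 18.45 in the high pool. Its groups overlapped in both pools, with a shift of 0.07 (adjusted p = 0.762). Its high pool values are as bright as those of ACTG2 that the normalisation sets by rank, so a change there could be hidden. TUBA1A was at −0.30 (adjusted p = 0.442) and the TUBA4A probes at −0.40 (adjusted p = 0.0671) and −0.13, so no alpha tubulin was called. Whether TUBB and TUBB6 differed from each other was not tested.

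Among actin binders, CNN2 was at −1.03 ± 0.18 (adjusted p = 0.00076), the TPM2 pair at −0.90 and −0.63 and FLNA at −0.76 ± 0.25 (adjusted p = 0.0343). The FLNA call was lost in 11 of 25 settings, with all 24 arrays and with each of 7 single arrays left out among them. TPM1 at −0.66 (adjusted p = 0.0591) and TPM4 at −0.61 (adjusted p = 0.388) did not pass. The CNN2 value combined opposite calls, a rise in the untranslated pool and a fall in the high pool, and so did TUBGCP2 at −0.95 ± 0.16 (adjusted p = 0.000509). FLNA rose in both pools, but less in the high pool.

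Members with a higher shift included the regulatory light chains. MYL12A was at 0.98 ± 0.22 (adjusted p = 0.00466) and the MYL12B pair at 0.94 (adjusted p = 0.0379) and 0.84 (adjusted p = 0.02). The MYL12A call was lost in 2 of 25 settings and those of the MYL12B pair in 13 and 7. CFL1 lay just outside the threshold at both probes, at 0.62 (adjusted p = 0.0551 and 0.0598), and PFN1 was at 0.38 (adjusted p = 0.285). ACTR3B was called at 2 of 3 probes, by 0.91 (adjusted p = 0.00509) and 0.56 (adjusted p = 0.00979), and ARPC5L by 0.63 (adjusted p = 0.0152). The dim ACTG2 probe was at 1.37 ± 0.38 (adjusted p = 0.0151) and TUBD1 at 1.26 ± 0.40 (adjusted p = 0.0327), the latter lost in 13 of 24 settings in which it was tested. Under 75th percentile scaling 0 members had a higher shift and 11 a lower one, among them MYO10 at −2.12, the 3 TUBB probes, the TPM2 pair and FLNA. Of catalog probes 1.8% then had a higher and 7.24% a lower shift.

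**Figure D5:**
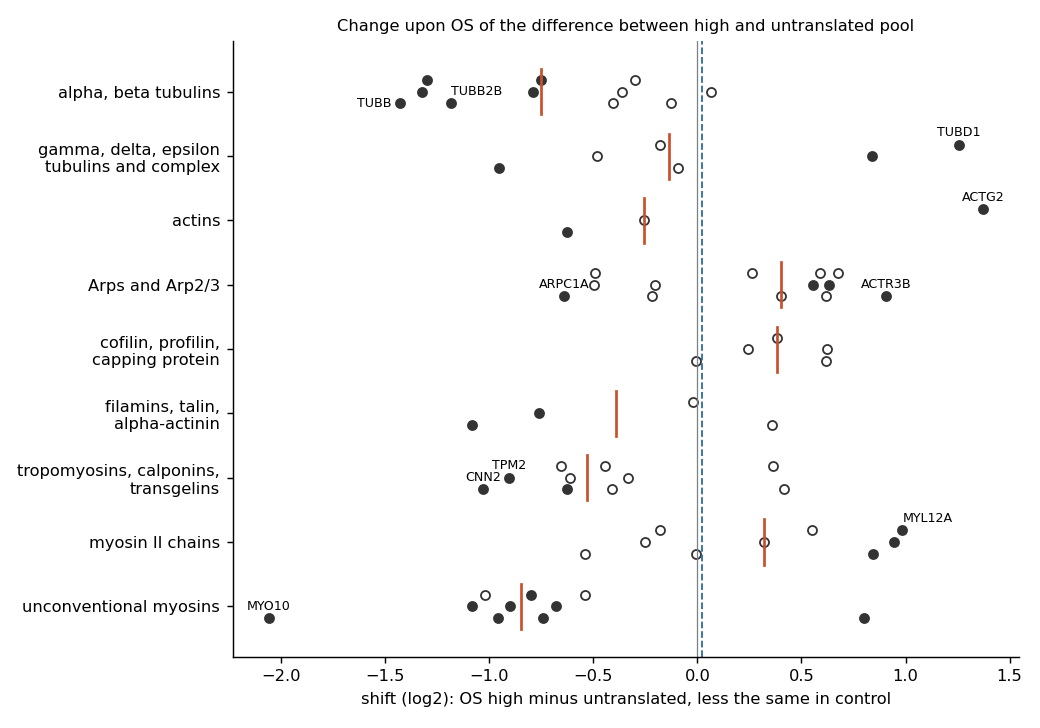
Shift upon OS (x axis, log2 difference between high and untranslated pool upon OS minus that in control) of each member probe tested, by role (y axis). Filled points were called, orange bars are role medians and the dashed line is the median of all catalog probes tested at 0.02; unconventional myosins at −0.85 and alpha and beta tubulins at −0.75 have the lowest medians.

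Genes that act on the same filaments but that the rule did not take were counted in 2 lists. Of 45 actin regulators 25 had a probe. Of their 27 probes tested 14 had a lower shift and 0 a higher one, with 14% of catalog probes lower and 16.1% higher, the largest being the coronin CORO1B at −2.28 ± 0.41 (adjusted p = 0.00095), the formin DIAPH1 at −1.74 ± 0.18 (adjusted p = 5.89e-06) and LASP1 at −1.40 ± 0.20 (adjusted p = 0.000123). In the untranslated pool 16 of 25 of them rose and 0 fell, against 21.3% and 24% of catalog probes. In the high pool 1 of 27 rose and 2 fell, against 6.58% and 5.94%, and in total RNA 0 of 27 rose and 4 fell, against 5.49% and 7.56%. Of 17 probes for tubulin folding and binding, 8 had a lower and 3 a higher shift, again against 14% and 16.1%, with the tubulin cofactor TBCD at −1.67 ± 0.33 (adjusted p = 0.00176), the microtubule protein MAP4 at −1.32 (adjusted p = 0.000988) and the chaperonin subunit CCT4 at −1.13 (adjusted p = 0.000652). In total RNA 0 of 19 of these rose and 2 fell, against 5.49% and 7.56%.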

How the data were processed

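Total RNA and gradient pools of control and OS-treated MRC5 cells were hybridised to 24 one-colour arrays. The authors deposited scanner output of Feature Extraction 10.7.3.1, from which the processed signal intensity was read, with probe positions on GRCh37 as the array design gives them. A deposited table of log2 values differed by at most 0.00276 from log2 processed signal quantile-normalised over all probes of the 24 arrays. Following the methods, log2 processed signals of 23 arrays were quantile-normalised here, lncRNA and catalog probes apart. Control spots were dropped, as were 178 probes marked as outliers on 1 or more arrays. Spots of a probe were averaged, and probes of a gene were kept apart. No exon or UTR was assigned, since no GRCh37 annotation was used here, and protein sequences were not used. Some members and a list of related genes are not reported here.

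All groups entered one means model in limma 3.58.1 (R 4.3.3), with empirical Bayes moderation and Benjamini-Hochberg adjustment over all probes tested of both kinds, called at an adjusted p below 0.05. Groups came from the labels. The members, roles and lists were chosen with earlier results of these data known. Named genes were the fixed panel and, per comparison, the 3 called probes highest and the 3 lowest without overlap between groups. A few more were named after their values were seen, as the text says. Probe accessions matched the RefSeq table for 103 of 111 probes. Arrays hold no read depth, and their number limits the precision. The scripts were tested on simulated data. Alternatives covered the arrays used, normalisation, background correction, the filter on dim probes, replicate and slide blocks, the groups in the fit and leaving out each replicate. Correlations of deviations between same-numbered arrays ran from −0.225 to 0.26 in the pairs of groups checked. Over all pairs of groups the median was 0.069 for same-numbered and −0.028 for other-numbered arrays. The replicate number was therefore used as a block only among the alternatives. Pools of one run come from the same gradient, and low correlations cannot show that the numbers do not pair them.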

Additional observations from a re-analysis of the deposited data

Results flagged for a closer look

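For 3 probes OS changed the untranslated and the high pool in opposite directions, both past the threshold, and the difference between these effects was itself called. TUBGCP2 changed by 0.51 in the untranslated and by −0.44 in the high pool, a difference of −0.95. MYL12A changed by −0.49 and 0.49, a difference of 0.98, and CNN2 by 0.57 and −0.46, a difference of −1.03. The high pool call was lost in 13 of 18 alternative settings for MYL12A, in 9 for CNN2 and in 5 for TUBGCP2, and the untranslated pool call of MYL12A in 7 of 19. For the other 5 the effects of OS in the 2 pools differed by the same test, but the high pool change alone was not called. These were ACTG2 (A_33_P3418541) at 1.37, TUBD1 at 1.26, MYO10 at −2.06, TUBB (A_23_P81912) at −1.43 and TUBB2B at −1.18. Changes in the high pool were 0.18, −0.13, −0.10, −0.35 and −0.19, in that order. TUBD1 and the ACTG2 probe were dim, at 5.79 to 7.48 and 6.66 to 7.07 in the OS untranslated pool.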

How the results depend on the processing

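The 38 results picked as the largest called differences kept their sign, and of their 765 values under the alternatives 695 kept their side of the threshold and 70 lost the call. Among all member calls the sign turned under at least 1 alternative for 8 of 68 between high and untranslated pool in control, 5 of 60 upon OS, and 0 in the other comparisons. Of the counts of members called, the 10 in total RNA became 6 with all 24 arrays, 6 with the filter on all groups compared and 17 with only the groups compared in the fit. The 35 in the untranslated pool became 20 under 75th percentile scaling and 20 with only the groups compared. The 13 in the low pool became 3 under 75th percentile scaling and ranged from 5 to 13 as each replicate was left out. The 8 in the high pool became 3 with all 24 arrays, 4 under 75th percentile scaling, 5 with the deposited table and 3 with only the groups compared, and ranged from 4 to 13 as each replicate was left out. The 31 in the shift became 17 with all 24 arrays, 11 under 75th percentile scaling and 18 with only the groups compared. Catalog shares fell as well. In the shift they went from 16.1% higher and 14% lower to 6.87% and 7.37% with all 24 arrays. In the untranslated pool they went from 21.3% and 24% to 13.8% and 8.52% under 75th percentile scaling. The cause was not tested. Scaling by the 75th percentile moved the catalog median from −0.02 to −0.19 in total RNA, from −0.03 to −0.26 in the low pool, from 0.35 to 1.64 for high against untranslated pool in control and from 0.37 to 1.58 upon OS. The split of members higher and lower became 57 and 5 in control and 64 and 5 upon OS, 2 and 1 in the low pool and 4 and 0 in the high pool. Catalog shares higher and lower were then 67.9% and 14.7% in control and 69.2% and 14% upon OS. They were 2.49% and 5.46% in the low pool and 2.95% and 2.75% in the high pool. With all probes normalised together the member split was 55 and 9 in control and 59 and 6 upon OS, with values as deposited 55 and 8, and 59 and 6, and with normexp background correction 59 and 7 upon OS and 10 and 2 in the low pool. Catalog shares with all probes together were 61.2% and 23.8% in control and 61.7% and 21.5% upon OS. With values as deposited they were 61.1% and 23.6%, and 61.6% and 21.4%. With normexp they were 62.2% and 21.5% upon OS and 4.71% and 7.26% in the low pool.

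The main fit did not use the replicate numbers as pairs. With the replicate block 11, 35, 12 and 8 members were called in total RNA and in the untranslated, the low and the high pool, and 33 in the shift. With the slide as a block these were 11, 35, 13, 8 and 31. Leaving control total replicate 1 out throughout, chosen after seeing the data, gave 35, 12, 6 and 32 in the pools and the shift and 9 in total RNA, and robust trended moderation, also chosen then, 11, 37, 14, 11 and 36. Averaging control untranslated replicates 1 and 2, whose labels share a number, gave 32 in the untranslated pool and 27 in the shift.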
